A study of Mus musculus with 2 samples.

Results

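Krt14-high corneal basal cells were the wild-type epithelial cells that carried both Krt12, the keratin gene of the corneal epithelium, and a high level of Krt14, the basal-layer keratin gene. They numbered 1815 of the 8848 Krt12-high cells of the wild-type library (20.5%, exact 95% interval 19.7 to 21.4), of 10154 wild-type cells past the filters, and of 19696 cells in the whole series. The cells were chosen by thresholds on measured transcripts. A member held at least 30 unique molecular identifiers (UMIs, each counting 1 captured transcript) of Krt5, Krt14 and Krt15 together per 10000 UMIs of the cell. It also held at least 60 of Krt12, at least 10 of Krt14 and under 5 of Krt13 per 10000. Fewer than 5 UMIs of the mitotic genes Ube2c, Ccnb1, Plk1 and Cenpf, and fewer than 5 of the S-phase genes Hist1h1b, Hist1h2ap and Rrm2, were allowed. The contrast was with the other 7033 Krt12-high cells of the same library.

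The corneal epithelium is a stratified sheet. Its basal cells sit on a basement membrane, to which they are held by hemidesmosomes, and are replaced by the progeny of stem cells at the limbus, the rim of the cornea. Daughter cells leave the basal layer, become wing cells and finally flat superficial cells that carry a mucin coat and are shed. The keratins Krt5 and Krt14 pair with each other in basal layers of stratified epithelia, whereas Krt12 is the keratin of the corneal type.

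Cells came from the cornea and limbus of mice. The cells described here are from the library labelled wt, and the other library of the series is labelled Pax6 +/-, meaning 1 disrupted copy of the eye transcription factor gene Pax6. Both tissues were treated alike: lens, retina and iris were taken off, most of the conjunctiva was cut away, and the rest was digested with liberase and then trypsin before droplet capture. The allele, strain, age and sex are not given in the labels. The design text names 2 mice per genotype, but each genotype has 1 library, and whether mice were pooled is not stated. With 1 library per genotype no test was possible, since cells of 1 library are not replicates. "Higher" and "lower" describe these cells, and every interval covers counting error only.

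Krt14-high cells had a median of 12479 UMIs and 3477 genes, against 10039 UMIs and 3332 genes in the other Krt12-high cells, with mitochondrial shares of 1.33% and 1.71%. The summed UMIs were 21793447 in Krt14-high cells and 91234162 in the others. The other Krt12-high cells were 4734 Krt14-low cells that passed every other threshold, 812 Krt13-positive cells, 769 mitotic cells, 99 S-phase cells and 619 cells low in basal keratins. Vessel, nerve and immune cells of the wild-type library (191 cells, median 3900 UMIs) served as a gauge of free RNA, since they should lack epithelial transcripts. They still held 1899 CPM of Krt12 (UMIs per 1000000 summed UMIs of the class, without mitochondrially encoded genes), and 5 of them reached the Krt12 threshold. The libraries shared 40 barcodes, 8 of them among Krt14-high cells.

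The thresholds used the keratins, so their levels are a description. Krt14 (ENSMUSG00000045545; GRCm38 chromosome 11, 100203162 to 100207548, minus strand) had a median of 21.8 UMIs per 10000 in Krt14-high cells, with quartiles of 15.2 and 32.7, against a median of 0.63 and quartiles of 0 and 3.96 in the other Krt12-high cells. Krt14 was therefore spread over a wide range above the threshold, and the distribution ran on through the threshold without a gap. Krt12 (ENSMUSG00000020912; chromosome 11, 99415666 to 99422259, minus strand) had a median of 191 per 10000 in Krt14-high cells and 268 in the others. Krt5 (ENSMUSG00000061527; chromosome 15, 101707070 to 101712898, minus strand) had a median of 44.1 per 10000 in Krt14-high cells and 57.5 in the others. The label of corneal basal cells thus rests on Krt14, while Krt5, the basal partner keratin, and Krt12 both stood below the level of the other Krt12-high cells.

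**Figure D1:**
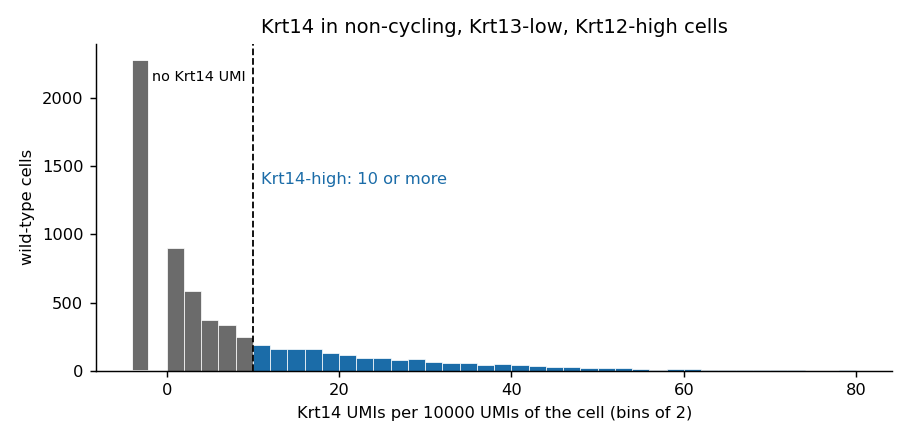
Number of wild-type cells (vertical axis) by Krt14 UMIs per 10000 UMIs of the cell (horizontal axis, bins of 2, with cells without a Krt14 UMI drawn apart at the left), for Krt12-high cells that pass all thresholds other than Krt14. The 2282 cells without a Krt14 UMI stand apart, and the count of cells per bin falls through the dashed threshold at 10 without a gap; the 8 cells at 80 or more are not drawn.

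Cells just inside and just outside the threshold were near each other in some genes and apart in others. The 101 Krt14-high cells with 10 to under 11 Krt14 UMIs per 10000 held 692 CPM of Nrg1, 1020 CPM of Itga6 and 32.3 CPM of Asprv1. The 117 Krt14-low cells with 9 to under 10 held 639 CPM of Nrg1, 939 CPM of Itga6 and 60.7 CPM of Asprv1. Nrg1 and Itga6 were within 1.5-fold and Asprv1 was not. Krt15 stood at 1064.5 CPM just inside and 333 CPM just outside, Nr4a1 at 101 CPM just inside and 170 CPM just outside, and Krt6b at 138 CPM just inside and 234 CPM just outside. Since the count of cells showed no gap, Krt14-high cells are a range of Krt14 levels cut at 1 value.

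Against the other Krt12-high cells, Krt14-high cells carried more transcripts of many basement membrane, integrin and immediate early genes and of the ligand gene Nrg1, and far fewer of most superficial barrier genes. Of 6317 genes that reached 20 CPM in one class or both, 517 (8.18%) stood 1.5-fold or more above the other Krt12-high cells and 713 (11.3%) 1.5-fold or more below, and past 2-fold the shares were 2.66% and 4.99%. These marks define higher and lower from here on. With DESeq2 size factors the split was 678 higher and 568 lower. Since the same cells defined the classes, these counts describe the contrast and test nothing.

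Among the 15 genes with the highest ratio (at least 50 CPM in either class, keratin and cycle genes of the thresholds left out), several act at the cell's surface and in its contacts. Plaur, the urokinase receptor, stood at 137 CPM in Krt14-high cells and 39.7 CPM in the others. Fscn1, which bundles actin in cell protrusions, stood at 61.4 CPM in Krt14-high cells and 16.0 CPM in the others. Cldn1, a tight junction claudin, stood at 146 CPM in Krt14-high cells and 45.0 CPM in the others.

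Secreted signals and their receptors were the next group. Nrg1, a ligand of the ERBB receptors, stood at 1083 CPM in Krt14-high cells and 282 CPM in the others, a ratio of 3.83 (3.76 to 3.9), and at 40.3 CPM in the vessel, nerve and immune cells. Nrg1 UMIs were found in 88.7% of Krt14-high cells, 55.7% of the others and 7.33% of the vessel, nerve and immune cells, at median depths of 12479, 10039 and 3900 UMIs. With every cell thinned to 5000 UMIs and shallower cells left out (1525 Krt14-high, 5395 other and 59 vessel, nerve and immune cells kept), the shares were 84.1%, 46.7% and 10.2%. Ccn1, a matricellular protein, stood at 875 CPM in Krt14-high cells and 252 CPM in the others. Procr, the protein C receptor, stood at 114 CPM in Krt14-high cells and 25.5 CPM in the others, but also at 142 CPM in the vessel, nerve and immune cells.

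Regulators made up the rest of the 15. Fosl1, an AP-1 transcription factor subunit, stood at 297 CPM in Krt14-high cells, 77.9 CPM in the others and 19.0 CPM in the vessel, nerve and immune cells. Nr4a1, an orphan nuclear receptor of the immediate early class, stood at 235 CPM in Krt14-high cells and 50.6 CPM in the others, with 778 CPM in the vessel, nerve and immune cells. Tnfaip3, an inhibitor of NF-kappa-B signalling, stood at 69.4 CPM in Krt14-high cells and 21.8 CPM in the others. Pde4b, a cyclic AMP phosphodiesterase, stood at 404 CPM in Krt14-high cells and 116 CPM in the others. Ldlrad4, which dampens TGF-beta signalling, had the highest ratio, 4.75 (4.41 to 5.12), at 70.3 CPM in Krt14-high cells and 14.8 CPM in the others. Pxdc1 stood at 394 CPM in Krt14-high cells and 95.6 CPM in the others, Schip1 at 58.9 CPM in Krt14-high cells and 18.0 CPM in the others, and the remaining ones are not named. Ldlrad4, Nr4a1, Pde4b, Schip1 and Tnfaip3 were, like Procr, more abundant in the vessel, nerve and immune cells than in Krt14-high cells.

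**Figure D2:**
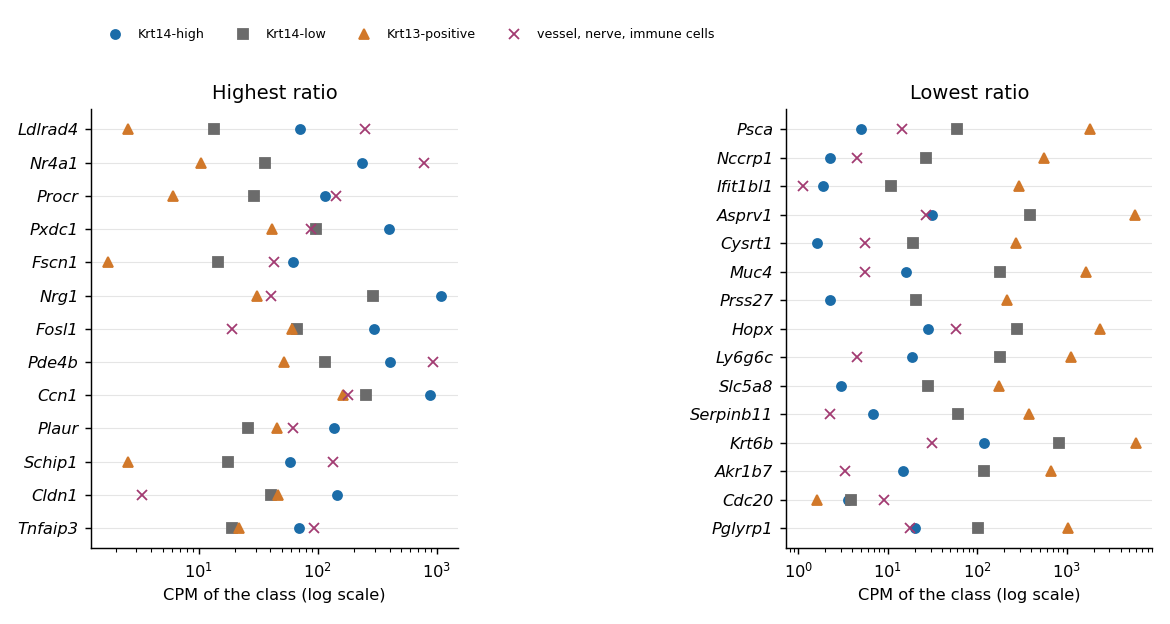
Summed level in CPM (horizontal axes, log scale) of 13 of the 15 genes with the highest and of the 15 genes with the lowest ratio of Krt14-high to other Krt12-high cells, in 4 classes of wild-type cells (values of 0 are not drawn). Circles, the Krt14-high cells, lie right of squares and triangles for the highest genes and, except for Cdc20, left of both for the lowest, where the Krt13-positive cells (triangles) reach 5909 CPM for Krt6b.

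The 15 genes with the lowest ratio were mostly genes of differentiated surface cells, and all but Cdc20 stood higher in Krt13-positive than in Krt14-low cells. The threshold on Krt13 took Krt13-positive cells out of Krt14-high cells and left them among the others, so these low ratios are partly set by the choice. Psca, a small membrane-anchored protein, stood at 5.08 CPM in Krt14-high cells and 495 CPM in the others, a ratio of 0.0103 (0.00842 to 0.0124), with 1803 CPM in Krt13-positive cells. Asprv1, a protease of keratinocyte differentiation, stood at 31.4 CPM in Krt14-high cells and 1553 CPM in the others, with 5769 CPM in Krt13-positive cells and 26.9 CPM in the vessel, nerve and immune cells. Muc4, a membrane mucin of the surface coat, stood at 16.0 CPM in Krt14-high cells and 484 CPM in the others. Hopx, a homeodomain protein of differentiating epithelia, stood at 27.9 CPM in Krt14-high cells and 685 CPM in the others. Krt6b, a keratin of suprabasal and stressed epithelium, stood at 117 CPM in Krt14-high cells and 1792 CPM in the others.

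The other 10 had ratios between those of Psca and Pglyrp1. Pglyrp1, an antibacterial peptidoglycan-binding protein, stood at 20.03 CPM in Krt14-high cells and 290 CPM in the others, a ratio of 0.0690. The proteases and inhibitors Prss27 and Serpinb11 stood at 2.28 and 6.89 CPM in Krt14-high cells, against 65.9 and 122 CPM in the others. Nccrp1, Ifit1bl1, Cysrt1, Ly6g6c, Slc5a8 and Akr1b7 stood between 1.63 and 18.5 CPM in Krt14-high cells and between 55.9 and 354 CPM in the others. Cdc20, a mitotic regulator, stood at 3.59 CPM in Krt14-high cells and 52.1 CPM in the others, with 288 CPM in mitotic cells, which the thresholds on cycle genes had removed from the Krt14-high cells. Against other Krt12-high cells without mitotic and S-phase cells its ratio was 1.08.

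Groups of genes were then counted over those members that reached 5 CPM in one class or both. Of all 9771 genes at that level 8.06% were higher and 14.2% lower, and their median log2 ratio was -0.09. Of 17 hemidesmosome and basement membrane genes, 10 were higher and 0 lower. The median log2 ratio of the list was 0.78. The laminin chain gene Lama3 stood at 710 CPM in Krt14-high cells and 319 CPM in the others, and Lamb3 at 40.9 CPM in Krt14-high cells and 19.4 CPM in the others. Col17a1, the transmembrane collagen of hemidesmosomes, stood at 1998 CPM in Krt14-high cells and 1163 CPM in the others, a ratio of 1.72 that came to 1.45 with cells thinned to equal depth. Col7a1, the collagen of anchoring fibrils, stood at 37.1 CPM in Krt14-high cells and 19.2 CPM in the others. Dst and Plec, the plakins that tie keratin to hemidesmosomes, had ratios of 1.23 and 1.39, below the 1.5-fold mark.

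Integrins followed the matrix. Of 14 basal surface and integrin genes, 9 were higher and 0 lower, the list's median log2 ratio being 0.92. Itga6 and Itgb4 encode the pair that spans the hemidesmosome. Itga6 stood at 1275 CPM in Krt14-high cells, 598 CPM in the others and 505 CPM in the vessel, nerve and immune cells, and Itgb4 at 228 CPM in Krt14-high cells, 118 CPM in the others and 88.5 CPM in the vessel, nerve and immune cells. Itgb1, Itga2 and Itga3, which form collagen and laminin receptors, had ratios of 2.26, 2.27 and 2.26. Cdh3, or P-cadherin, had a ratio of 2.24. Sdc1, a heparan sulfate proteoglycan, and Itgav were within 1.5-fold, with ratios of 0.929 and 1.069.

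Of 11 desmosome genes, 0 were higher and 5 lower, with log2 ratios around a median of -0.46. Dsg1a, the desmosomal cadherin of upper layers, stood at 125 CPM in Krt14-high cells and 318 CPM in the others. Dsp, or desmoplakin, stood at 1777 CPM in Krt14-high cells and 2448 CPM in the others, and Dsg3, the cadherin of lower layers, at 839 CPM in Krt14-high cells and 819 CPM in the others, both within 1.5-fold. Of 14 superficial barrier and mucin genes, 1 was higher (Cldn1) and 9 were lower. The median log2 ratio of the list was -1.62. Krt19 stood at 0.326 CPM in Krt14-high cells and 21.8 CPM in the others, and Upk3bl, a uroplakin-like membrane protein, at 1282 CPM in Krt14-high cells and 2749 CPM in the others.

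**Figure D3:**
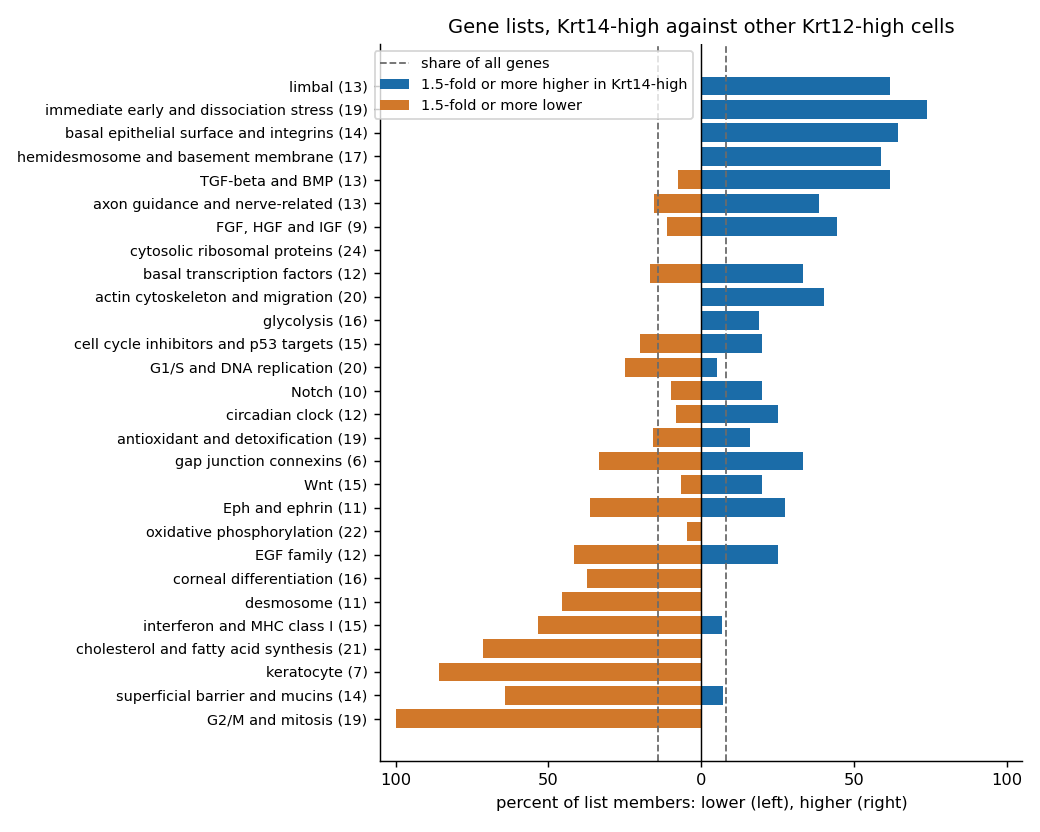
Share of the members of each gene list (vertical axis, number of members with at least 5 CPM in brackets) that were at least 1.5-fold higher (right, blue) or lower (left, orange) in Krt14-high than in other Krt12-high wild-type cells, in percent; dashed lines mark 8.06% and 14.2%, the shares over all genes. Matrix, integrin, limbal, TGF-beta and immediate early lists reach right, and the mitosis list, with 19 of 19 genes lower, reaches farthest left.

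Genes of corneal differentiation did not move as 1 block. Of 16 genes, 0 were higher and 6 lower, the list's median log2 ratio being -0.37. Aqp5, the water channel of the corneal surface, stood at 2027 CPM in Krt14-high cells and 5434 CPM in the others. Elf3 and Grhl3, transcription factors of epithelial differentiation, had ratios of 0.473 and 0.464. Slurp1, a secreted protein of the ocular surface, had a ratio of 0.659. The abundant enzymes of the cornea stood on the other side of 1: Aldh3a1, an aldehyde dehydrogenase, at 13319 CPM in Krt14-high cells and 10347 CPM in the others, and Tkt, transketolase, at 7340 CPM in Krt14-high cells and 5407 CPM in the others, both within 1.5-fold. Pax6 itself stood at 272 CPM in Krt14-high cells and 404 CPM in the others, a ratio of 0.674 (0.656 to 0.693), just inside the 1.5-fold mark.

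Of 12 basal transcription factor genes, 4 were higher and 2 lower, with log2 ratios around a median of 0.35. Sox9 stood at 199 CPM in Krt14-high cells, 98.9 CPM in the others and 3.36 CPM in the vessel, nerve and immune cells. Id3, an inhibitor of basic helix-loop-helix factors, had a ratio of 3.06, but the vessel, nerve and immune cells held 1248 CPM of it. Myc and Sox15 were the other higher genes, with ratios of 2.60 and 1.74. Trp63, the master factor of stratified epithelia, stood at 187 CPM in Krt14-high cells and 213 CPM in the others, within 1.5-fold. Id1, with a ratio of 0.598, was among the lower genes, and came to 0.803 with cells thinned to equal depth.

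Most genes of the limbal list were higher, though not Lrig1, Abcg2 or Cd63. Of 13 limbal genes, 8 were higher and 0 lower, and their log2 ratios had a median of 1.1. Gpha2, a glycoprotein hormone subunit of limbal epithelium, stood at 74.9 CPM in Krt14-high cells, 28.9 CPM in the others and 1.12 CPM in the vessel, nerve and immune cells. It had a UMI in 587 of the 1815 cells, and 62 cells held 5 or more. Mt1 and Mt2, metallothioneins, had ratios of 2.43 and 2.14. Ifitm3, an interferon-induced membrane protein, had a ratio of 2.77, with 875 CPM in the vessel, nerve and immune cells. Atf3, Socs3, Ccnd2 and Krt17 completed the 8, and Atf3 is also an immediate early gene. Abcg2, a transporter, stood at 36.1 CPM in both classes, below its 363 CPM in the vessel, nerve and immune cells, and Cd63 stood at 9.88 CPM in Krt14-high cells and 8.95 CPM in the others, below its 442 CPM there.

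Most immediate early and dissociation stress genes were higher as well. Of 19 genes, 14 were higher and 0 lower. The median log2 ratio of the list was 0.95. Fos stood at 4406 CPM in Krt14-high cells, 2211 CPM in the others and 4369 CPM in the vessel, nerve and immune cells. Fosb, Jun and Egr1 had ratios of 2.63, 1.88 and 2.21. The inducible heat shock genes Hspa1a and Hspa1b had ratios of 1.10 and 0.946. Enzymatic digestion is known to raise such genes. The part of digestion in the matrix and Nrg1 values above was not tested.

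Because AP-1 subunit genes were among the highest, the 7 letters that AP-1 binds, TGANTCA, were searched on both strands in the 250 bases upstream of the start sites that RefSeq (GRCm38.p6) gives. Of the 15 highest genes, 11 had such a promoter in the table and 4 held the letters (36.4%): Plaur, Procr, Schip1 and Tnfaip3. Of the 15 lowest, 12 had a promoter and 2 held the letters (16.7%), Cysrt1 and Serpinb11, against 2113 of all 27025 genes with a promoter (7.82%). The letters TATAAA, searched in the same way, were in 4 of the 11 (36.4%), 3 of the 12 (25%) and 3872 of all (14.3%). The promoters of Plaur (chr7:24462233-24462482, plus strand) and Procr (chr2:155750967-155751116, plus strand) are shown because each holds the AP-1 letters, which the capitals mark. Each ends just before the annotated gene start, the Procr one trimmed to 150 bases.
Plaur: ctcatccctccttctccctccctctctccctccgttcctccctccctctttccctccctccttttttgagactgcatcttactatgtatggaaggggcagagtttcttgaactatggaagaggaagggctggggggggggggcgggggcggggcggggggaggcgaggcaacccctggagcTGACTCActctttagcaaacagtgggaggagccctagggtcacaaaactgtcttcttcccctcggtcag
Procr: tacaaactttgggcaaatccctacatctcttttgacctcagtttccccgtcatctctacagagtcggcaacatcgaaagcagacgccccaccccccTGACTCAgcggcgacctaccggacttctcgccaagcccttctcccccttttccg
The letters start at base 182 of the Plaur sequence and at base 97 of the Procr sequence. A match describes these letters and does not show that a factor binds there.

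Ligands and receptors were divided within families. Of 13 TGF-beta and BMP genes, 8 were higher and 1 lower, the list's median log2 ratio being 0.60. The receptor gene Tgfbr2 stood at 77.4 CPM in Krt14-high cells and 26.1 CPM in the others, the ligand gene Tgfb1 at 39.7 CPM in Krt14-high cells and 16.1 CPM in the others, and the signal transducer gene Smad3 at 70.1 CPM in Krt14-high cells and 36.0 CPM in the others. Fst, the activin antagonist follistatin, had the highest ratio of the list, 3.64, but stood at only 15.5 CPM in Krt14-high cells, with 60.5 CPM in the vessel, nerve and immune cells. Id2, a BMP target, was the lower gene, with a ratio of 0.519. Vessel, nerve and immune cells held more Tgfbr2 and Tgfb1 than Krt14-high cells, at 258 and 67.2 CPM.

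In the EGF family, 3 of 12 genes were higher and 5 lower. Besides Nrg1, the ligand gene Hbegf stood at 1243 CPM in Krt14-high cells and 742 CPM in the others, while Krt13-positive cells held 1515 CPM. The ligand gene Areg stood at 11 CPM in Krt14-high cells and 74.4 CPM in the others, and Ereg at 0.745 CPM in Krt14-high cells and 19.5 CPM in the others, so different ligands of 1 receptor family stood on opposite sides. The receptor gene Egfr stood at 369 CPM in Krt14-high cells and 390 CPM in the others. Errfi1, a feedback inhibitor of the EGF receptor, was the third higher gene, with a ratio of 2.42.

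Of 10 Notch genes, 2 were higher and 1 lower, and the list's median log2 ratio was 0.16. Over all genes at 5 CPM 8.06% were higher and 14.2% lower, so these few calls describe single genes rather than the family. The ligand gene Dll1 stood at 83.2 CPM in Krt14-high cells and 31.4 CPM in the others, and the ligand gene Jag2 at 84.4 CPM in Krt14-high cells and 42.4 CPM in the others. The receptor gene Notch3 stood at 73.0 CPM in Krt14-high cells and 133 CPM in the others, while Notch1 stood at 90.8 CPM in Krt14-high cells and 88.0 CPM in the others. Of 15 Wnt genes, 3 ligand genes were higher (Wnt10a, Wnt6 and Wnt3a, with ratios of 2.44, 2.29 and 1.51) and 1 was lower (Wnt11, 0.484). The Wnt list's median log2 ratio was -0.0065. Of 9 FGF, HGF and IGF genes, 4 were higher and 1 lower. The HGF receptor gene Met had a ratio of 1.63 that came to 1.47 with cells thinned to equal depth, and Fgfbp1, an FGF carrier, was the lower gene, at 233 CPM in Krt14-high cells and 682 CPM in the others.

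Of 13 axon guidance and nerve-related genes, 5 were higher and 2 lower. Sema3c, a secreted guidance cue, stood at 25.1 CPM in Krt14-high cells and 8.25 CPM in the others, with 31.4 CPM in the vessel, nerve and immune cells. Of 6 connexin genes, 2 were higher and 2 lower: Gja1, the connexin of basal layers, stood at 438 CPM in Krt14-high cells and 248 CPM in the others, and Gjb2 at 41.3 CPM in Krt14-high cells and 81.5 CPM in the others. Gja1 had a ratio of 1.49 with cells thinned to equal depth. Of 11 Eph and ephrin genes, 3 were higher and 4 lower, with Efna5 at a ratio of 1.75 and Epha4 at 0.494. Of 20 actin and migration genes, 8 were higher and 0 lower, among them Lmna at 459 CPM in Krt14-high cells and 212 CPM in the others, with 1330 CPM in the vessel, nerve and immune cells.

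Metabolism was divided by pathway. Of 21 cholesterol and fatty acid synthesis genes, 0 were higher and 15 lower, with log2 ratios around a median of -0.77. Fdps, which makes farnesyl diphosphate, stood at 185 CPM in Krt14-high cells and 515 CPM in the others, and Sqle, squalene epoxidase, at 83.6 CPM in Krt14-high cells and 173 CPM in the others. The sterol regulator gene Srebf2 had a ratio of 0.987. Of 16 glycolysis genes, 3 were higher and 0 lower. Slc2a1, the glucose transporter, stood at 228 CPM in Krt14-high cells and 79.3 CPM in the others, and Hk2, hexokinase, at 188 CPM in Krt14-high cells and 92.6 CPM in the others, whereas Gapdh and Ldha had ratios of 1.19 and 1.10.

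Of 22 oxidative phosphorylation genes, 0 were higher and 1 lower (Ndufa4, 0.617, and 0.737 with cells thinned to equal depth). No cytosolic ribosomal protein gene reached the 1.5-fold mark, although all 24 had a ratio above 1, with a median log2 ratio of 0.43. Of 19 antioxidant genes, 3 were higher and 3 lower. The abundant glutathione transferase genes Gsta4 and Gsto1 stood at 2663 and 2852 CPM in Krt14-high cells, against 6455 and 6997 CPM in the others. Of 15 interferon and MHC class I genes, 1 was higher (Ifitm3) and 8 were lower, with Ifitm1 at 55.9 CPM in Krt14-high cells and 385 CPM in the others.

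Of 20 G1/S genes, 1 was higher and 5 lower, and of 19 mitotic genes, 0 were higher and 19 lower, and the list had a median of -3.0 on the log2 scale. The thresholds removed cycling cells from Krt14-high cells and not from the others, so this is part of the choice. Without mitotic and S-phase cells among the others the median of the mitotic list was 0.47. Of 15 cell cycle inhibitor and p53 target genes, 3 were higher and 3 lower: Btg2, an antiproliferative immediate early gene, stood at 1957 CPM in Krt14-high cells and 783 CPM in the others, and the inhibitor gene Cdkn2b at 11.2 CPM in Krt14-high cells and 37.8 CPM in the others. Of 12 clock genes, 3 were higher and 1 lower, with the repressor gene Bhlhe40 at 783 CPM in Krt14-high cells and 335 CPM in the others.

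Markers of other cell types were summed. Krt14-high cells held a sum of 164 CPM over 11 keratocyte genes (stromal cells of the cornea), against 291 CPM in the other Krt12-high cells and 2329 CPM in the vessel, nerve and immune cells. Within the other Krt12-high cells, those low in basal keratins held 2237 CPM of the keratocyte genes. The 10 vascular endothelial genes came to 3.31 CPM in Krt14-high cells, with Selp, Cldn5 and Tie1 at 0 UMIs. The 12 immune genes came to 7.41 CPM, with Ptprc, Cd3e, Nkg7 and Itgax at 0 UMIs. Of the lymphatic list only Pdpn, which basal keratinocytes also express, passed 5 CPM, at 128 CPM in Krt14-high cells and 53.2 CPM in the others, with Prox1 at 0. The 8 Schwann cell genes came to 194 CPM in Krt14-high cells, against 142 CPM in the others and 2914 CPM in the vessel, nerve and immune cells, nearly all of it Mbp (129 CPM) and Pmp22 (62.7 CPM). The 9 mural cell genes came to 77.0 CPM in Krt14-high cells and 138 CPM in the others, and the 6 melanocyte genes to 6.24 CPM in Krt14-high cells and 7.14 CPM in the others. The 14 conjunctival and goblet genes came to 1500.0 CPM in Krt14-high cells, 2513 CPM in the others and 133 CPM in the vessel, nerve and immune cells. Aqp3, a water and glycerol channel that other epithelia also express, gave 1476 CPM of this in Krt14-high cells, and the goblet cell genes Muc5ac, Tff1 and Tff3 were at 0.

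Against the nearest class, the Krt14-low cells (median 9299.5 UMIs), most of the pattern held with the cycling and Krt13-positive cells out of the contrast. Of 6297 genes, 443 (7.04%) were higher and 643 (10.2%) lower in Krt14-high cells, with 2.68% and 3.24% past 2-fold. Scaling mattered here: edgeR and DESeq2 factors moved every log2 ratio up by 0.12 and 0.15, and gave 597 higher and 423 lower genes and 624 higher and 389 lower genes. Over genes with at least 5 CPM, 6.93% were higher and 13.7% lower. The median log2 ratio over all genes at that level was -0.14. Nrg1 stood at 1083 CPM in Krt14-high and 290 CPM in Krt14-low cells. Of the basal surface and integrin genes 8 of 14 were higher, of the hemidesmosome and basement membrane genes 8 of 17, of the limbal genes 8 of 13, and of the immediate early genes 15 of 19, with 0 lower in each.

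Among genes that were lower in Krt14-high than in Krt14-low cells, Asprv1 stood at 31.4 CPM in Krt14-high and 384 CPM in Krt14-low cells, Muc4 at 16.0 CPM in Krt14-high and 179 CPM in Krt14-low cells, and Krt6b at 117 CPM in Krt14-high and 811 CPM in Krt14-low cells. Cholesterol and fatty acid synthesis genes were lower in 10 of 21 and interferon and MHC class I genes in 8 of 15. The mitotic list, with cycling cells out of both classes, had 2 of 9 genes higher and 1 lower. The G1/S list had 4 of 19 higher and 0 lower. Phlda1 and Krt16, within 1.5-fold of the other Krt12-high cells at ratios of 1.33 and 1.09, had ratios of 2.84 and 1.75 against Krt14-low cells, since Krt13-positive cells held 595 CPM of Phlda1 and 1554 CPM of Krt16.

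Against the 812 Krt13-positive cells, 2336 of 6239 genes (37.4%) were higher and 1109 (17.8%) lower in Krt14-high cells, with 21% and 11% past 2-fold. This balance turned with the scaling. edgeR factors moved every log2 ratio by -0.40 and gave 1341 higher and 1810 lower genes, and DESeq2 factors moved it by -0.45 and gave 1233 higher and 1929 lower genes. The shift was of the size of the median over genes with at least 5 CPM, 0.39, where 41.2% were higher and 15.6% lower. Hemidesmosome and basement membrane genes lay far above it, with 17 of 17 higher and a median log2 ratio of 2.79, and superficial barrier genes far below, with 1 of 15 higher and 13 lower and a median of -3.16. Nrg1 stood at 1083 CPM in Krt14-high and 30.9 CPM in Krt13-positive cells, and Aqp5 at 2027 CPM in Krt14-high and 10203 CPM in Krt13-positive cells. Against the 769 mitotic cells, 357 of 6456 genes (5.53%) were higher and 751 (11.6%) lower in Krt14-high cells. Over genes at 5 CPM these shares were 5.92% and 14.3%, beside which 6 of 17 hemidesmosome and basement membrane genes, 6 of 14 basal surface and integrin genes and 12 of 19 immediate early genes were higher and 0 lower, and desmosome genes had 0 of 11 on either side. Of these mitotic cells 354 would have met the Krt14 threshold, as would 29 Krt13-positive cells.

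Levels were graded over the whole range of Krt14. The cells with the same other thresholds were split at 0, 5, 10, 20 and 40 Krt14 UMIs per 10000 into 6 bins of 2282, 1693, 759, 803, 736 and 276 cells, the last 3 of them Krt14-high. Nrg1 stood at 174, 293, 559, 787, 1125 and 1730 CPM, low to high. Lama3 stood at 300.3, 366, 479, 589, 756.5 and 903 CPM. Both were higher in every bin than in the one before, and among Krt14-high cells alone Nrg1 was more than 2-fold higher in the top bin than in the lowest.

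Other genes levelled off or turned. Itga6 stood at 521, 661, 868, 1139, 1380 and 1357 CPM, flat over the last step. Aldh3a1 stood at 10051, 11927, 13166, 13072, 13526 and 13420 CPM, with nearly all of its gain below the Krt14 threshold. Trp63 stood at 240, 261, 278, 212, 173 and 163 CPM, highest just under the threshold. Gpha2 stood at 18.9, 30.9, 53.6, 54.1, 72.9 and 133 CPM, and Krt16, a keratin of activated epithelium, at 389, 341, 392, 508, 636 and 1015 CPM, so that both were highest in the 276 cells with most Krt14. Hbegf stood at 529, 524, 594, 933, 1404 and 1628 CPM and changed little below the threshold.

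**Figure D4:**
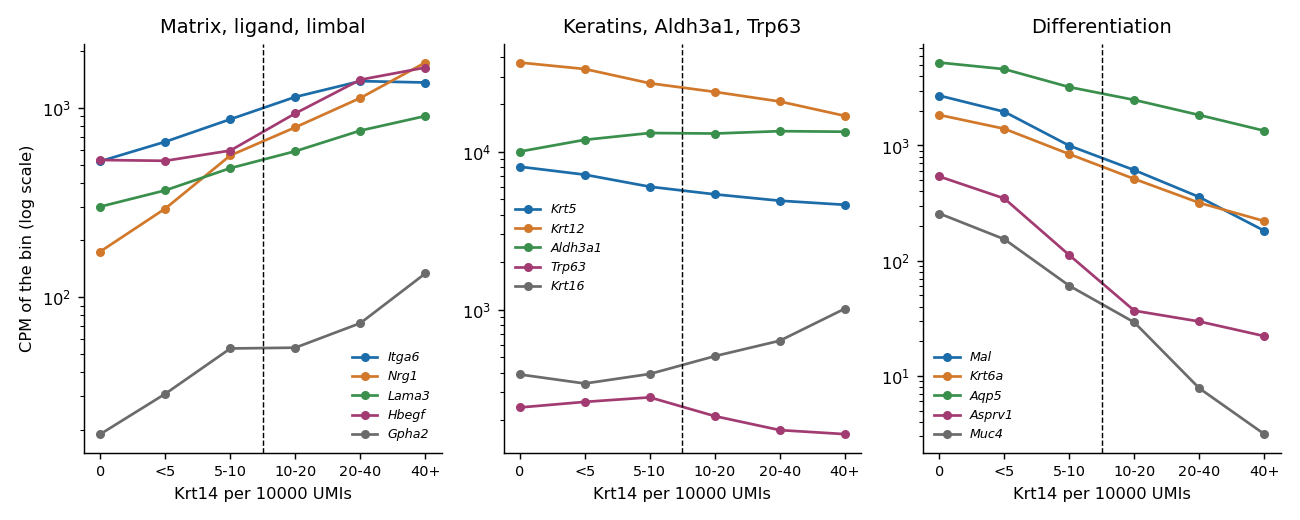
Summed level in CPM (vertical axes, log scale) of 15 genes in 6 bins of Krt14 UMIs per 10000 (horizontal axes, low to high), in wild-type Krt12-high cells that pass all other thresholds; the dashed line separates Krt14-low bins (left) from Krt14-high bins (right). Nrg1 runs between 174 and 1730 CPM upwards, Muc4 between 257 and 3.13 CPM downwards, and Trp63 peaks at 278 CPM left of the line.

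Some genes ran downwards, unlike Krt16 and Aldh3a1 above. Krt12 stood at 36804, 33502, 27213, 23996, 20857 and 16915 CPM and Krt5 at 8053, 7171, 6016, 5384, 4904 and 4621 CPM. Mal, a membrane protein of apical sorting, stood at 2709, 1962, 996, 611, 357 and 182 CPM, and Muc4 at 257, 154, 60.6, 29.2, 7.81 and 3.13 CPM. The bins also differed in depth, with median UMIs of 7637.5, 11047, 10040, 11619, 12856 and 13191.5 and median mitochondrial shares between 1.96% in the lowest and 1.25% in the highest bin, and the part of these in the gradients was not tested.

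Among Krt14-high cells themselves, variation was ranked by the squared coefficient of variation beyond counting noise, in 1525 cells thinned to 5000 UMIs and over 729 genes with a mean of at least 1 UMI. Fabp5, a fatty acid binding protein, came first of the genes ranked with 4.86 and was found in 41.3% of cells, followed by the stress keratin gene Krt6a with 4.85 in 42.5%. Mal (3.08), Krt16 (3.0), Errfi1 (2.77), the peptide hormone gene Adm (2.62), the nuclear long noncoding RNA gene Neat1 (2.26) and Phlda1 (2.25) came next. Tenm2, Nr4a1, Cebpd, Mxd1, Tgfbr1 and Fgfbp1 were also among the 15, with values between 1.95 and 1.49. The threshold genes were left out of this ranking. Krt14, Krt12 and Krt5 had values of 0.261, 0.121 and 0.111, which the floors on these keratins limit, and Krt15 had 12.8.

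As a description over the same 1525 cells of 1 library, Krt6a and Mal had a Pearson correlation of log-transformed thinned counts of 0.47, Mal and Krt12 of 0.52, and Krt5 and Krt12 of 0.55. Phlda1 and Krt14 had a correlation of 0.30. All of these pairs share the library and the depth of the cells.

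Krt15, known as a keratin of basal progenitor cells, entered the thresholds only in a sum. In this library it was higher in Krt13-positive cells, with a median of 32.8 per 10000 and quartiles of 2.64 and 88.6. Krt14-high and Krt14-low cells both had a median of 0, with upper quartiles of 1.75 and 1.54. A high Krt15 level was thus not particular to basal cells here, and whether it marks progenitors was not tested. Among Krt14-high cells, Krt15 had no UMI in 1034 of the 1815 cells (57.0%) and stood at 10 per 10000 or more in 169 (9.31%). The 169 cells are called Krt15-high here, and some of the other 1646 also held Krt15 UMIs. Median depths were alike, 12393 UMIs in the 169 cells and 12489.5 in the other 1646. Of 6075 genes, 296 (4.87%) were higher and 214 (3.52%) lower in the 169 cells. The genes named here were chosen after their values were seen. Ifitm1 stood at 367 CPM in the Krt15-high cells and 17.3 CPM in the rest, Hopx at 138 CPM in the Krt15-high cells and 14.2 CPM in the rest, and Muc4 at 88.2 CPM in the Krt15-high cells and 7.02 CPM in the rest.

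Other genes, chosen in the same way, were lower in the Krt15-high cells. Dll1 stood at 38.0 CPM in the Krt15-high cells and 88.8 CPM in the rest, and Lsamp, a neural-type adhesion protein, at 338 CPM in the Krt15-high cells and 980 CPM in the rest. Krt14 and Krt12 were within 1.5-fold, with ratios of 1.14 and 1.01. Doublet scores moved with this split: 21 of the 169 cells (12.4%, interval 7.86 to 18.4) and 63 of the other 1646 (3.83%, 2.95 to 4.87) were among the 5% of the library with the highest scores, and the part of doublets in the split was not tested.

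The same thresholds were applied to the library labelled Pax6 +/-, which played no part in choosing the wild-type cells. Among Krt14-high cells Pax6 went against that label: it stood at 783 CPM in those of the library labelled Pax6 +/- and 272 CPM in those of the wt library, a ratio of 2.88 (2.76 to 3.0). These cells were kept for their Krt12 level, and Pax6 in the rest of the library labelled Pax6 +/- is not reported here. UMI counts do not separate a mutant from a normal transcript. Krt12-high cells were few in the library labelled Pax6 +/-, 518 of 9542, and 277 of them were Krt14-high (53.5%, 49.1 to 57.8), against 20.5% in the wt library. Of all cells past the filters, Krt14-high cells made up 2.90% in the library labelled Pax6 +/- and 17.9% in the wt library.

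Within the library labelled Pax6 +/-, 472 of 6666 genes (7.08%) were higher and 737 (11.1%) lower in Krt14-high than in the 241 other Krt12-high cells, with 2.36% and 4.82% past 2-fold. Of the 15 genes highest in the wt library, 12 were at least 1.5-fold higher here too, Pde4b (1.39) and Cldn1 (0.976) were within 1.5-fold, and Tnfaip3 was lower, at 7.82 CPM in Krt14-high cells and 15.4 CPM in the others. All 15 genes lowest in the wt library were at least 1.5-fold lower, with ratios of 0.0168 to 0.425. The same thresholds took Krt13-positive and cycling cells out of Krt14-high cells and left them among the others. Low ratios of surface and mitotic genes here are therefore partly set by the choice. Nrg1 stood at 599 CPM in Krt14-high cells and 205 CPM in the others, and Gpha2 at 84.0 CPM in Krt14-high cells and 24.5 CPM in the others. Of the hemidesmosome and basement membrane genes 10 of 17 were higher, and of the basal surface and integrin genes 9 of 15, with 0 lower in either, where 9.36% of all genes with at least 5 CPM were higher and 13.5% lower.

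Some lists stood apart from the wt pattern, and these differences were not tested. The comparison cells also differed in make-up. Of the 7033 other Krt12-high cells of the wt library 4734 were Krt14-low. Of the 241 in the library labelled Pax6 +/- 73 were Krt14-low, 59 Krt13-positive, 22 mitotic, 49 S-phase and 38 low in basal keratins. Of the 19 immediate early genes 6 were higher, with a median log2 ratio of 0.36, against 14 and 0.95 in the wt library. Of 10 keratocyte genes 9 were higher in the library labelled Pax6 +/-, against 0 of 7 in the wt library. Col1a1 stood at 335 CPM in Krt14-high cells and 55.3 CPM in the others of the library labelled Pax6 +/-, against 6.71 CPM in Krt14-high cells and 21.8 CPM in the others of the wt library. How much of this RNA came from outside the cells was not tested.

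**Figure D5:**
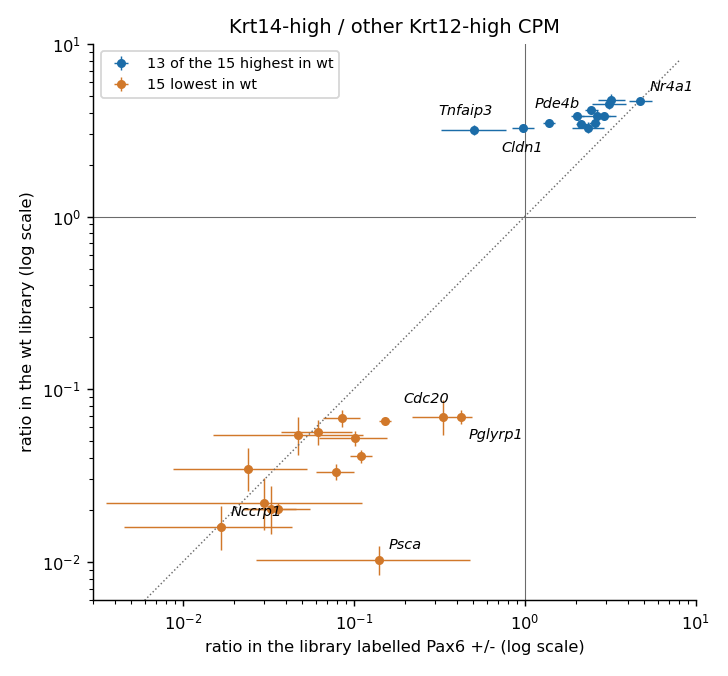
Ratio of Krt14-high to other Krt12-high cells in the library labelled Pax6 +/- (horizontal axis, log scale) and in the wt library (vertical axis, log scale), for 13 of the 15 genes highest (blue) and the 15 genes lowest (orange) in the wt library; bars are exact 95% intervals for counting error and the dotted line marks equal ratios. The lowest genes all lie left of 1, at most 0.425, while among the highest Tnfaip3 (0.507) and Cldn1 (0.976) lie left of it.

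Set side by side, Krt14-high cells of the 2 libraries differed in other genes. Of 6470 genes, 1034 (16%) were higher and 729 (11.3%) lower in the library labelled Pax6 +/- than in the wt library, with median depths of 16995 and 12479 UMIs. Over genes at 5 CPM the shares were 20.3% and 11.3%. All 15 interferon and MHC class I genes were higher, among them B2m at 1051 CPM in the library labelled Pax6 +/- and 114 CPM in the wt library. Krt17 stood at 706 CPM in the library labelled Pax6 +/- and 18.3 CPM in the wt library, Krt14 at 4658 CPM in the library labelled Pax6 +/- and 2697 CPM in the wt library, and Plaur at 451 CPM in the library labelled Pax6 +/- and 137 CPM in the wt library. Slurp1 stood at 303 CPM in the library labelled Pax6 +/- and 2007 CPM in the wt library, and Fos at 1248 CPM in the library labelled Pax6 +/- and 4406 CPM in the wt library. Aldh3a1 stood at 13216 CPM in the library labelled Pax6 +/- and 13319 CPM in the wt library, within 1.5-fold. The 10 keratocyte genes were all higher, with Dcn at 331 CPM in the library labelled Pax6 +/- and 35.9 CPM in the wt library. The part of stromal RNA in the other differences was not tested.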

How the data were processed

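Droplet single-cell RNA-seq of mouse cornea and limbus gave 1 library per genotype. The deposited matrices hold raw UMI counts per gene and barcode, made by the authors with Cell Ranger 8.0.0 per the file headers, on GRCm38 per the submitters' processing notes. Barcodes with fewer than 500 genes, under 1000 UMIs or a mitochondrial share over 20% were dropped. Counts were summed per class and expressed as CPM without mitochondrially encoded genes. Ratio intervals are exact conditional binomial and share intervals Clopper-Pearson, at 95%. Calls counted over all genes or lists needed a 1.5-fold ratio at 20 CPM in either class (5 CPM for lists), with the 12 threshold genes left out. Named were the 15 highest and 15 lowest ratios at 50 CPM, the threshold genes, the extremes and most abundant members of each list and the 15 most variable genes, while further list members were picked after their values were seen. Members and all 35 lists were chosen with earlier results of these data known. Scrublet, through scanpy 1.11.5, called 3 of 10154 wt cells (0.0295%) and 38 of 9542 cells (0.398%) of the library labelled Pax6 +/-. Its automatic cut-off thus did not work, and doublets were kept. The scores served only to rank cells, and how well they mark doublets here was not tested. The ratio script was tested on simulated data. Alternatives used edgeR 4.0.16 and DESeq2 1.42.0 factors, other filters and cell weights. Results for some genes are not reported here.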

Additional observations from a re-analysis of the deposited data

Results flagged for a closer look

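For 3 named genes the ratio of Krt14-high to other Krt12-high cells was at least 1.5-fold up in 1 library and at least 1.5-fold down in the other. The difference between libraries was not tested, and the other Krt12-high cells of the libraries differ in make-up. Tnfaip3 had a ratio of 0.507 in the library labelled Pax6 +/- and 3.18 in the wt library. Kera, a keratocyte proteoglycan gene, had a ratio of 11.2 in the library labelled Pax6 +/- and 0.214 in the wt library, where it was 0.717 without the 5% of cells with the highest doublet scores. Dcn, a stromal proteoglycan gene, had a ratio of 5.96 in the library labelled Pax6 +/- and 0.418 in the wt library. Kera stood at 58.5 CPM in Krt14-high cells of the library labelled Pax6 +/- and at 4.84 CPM in those of the wt library, and the keratocyte list moved as a whole, with 9 of 10 genes higher in the library labelled Pax6 +/- and 0 of 7 in the wt library.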

How the results depend on the processing

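No paired analysis was possible because each genotype has 1 library. Without a filter on low counts the counts higher and lower were 3120 and 8025 against other Krt12-high cells, 3097 and 7144 against Krt14-low cells, 9713 and 3835 against Krt13-positive cells, and 4016 and 4225 in the library labelled Pax6 +/-. At 2-fold they were 168 and 315, 169 and 204, 1310 and 689, and 157 and 321 in the same order. With edgeR and DESeq2 factors 423 and 389 genes were lower against Krt14-low cells, and against Krt13-positive cells 1341 and 1233 were higher and 1810 and 1929 lower. Thinned cells gave 1190 lower genes in the library labelled Pax6 +/-. Without mitotic and S-phase cells among the others, ratios crossed 1 for Ube2c (1.29), Plk1 (1.45), Cenpf (1.76), Hist1h1b (1.39), Rrm2 (1.75), Cdc20 (1.08), Pclaf (1.09) and Tubb5 (1.16), and the mitotic list's median was 0.47, because those cells hold the transcripts. Named genes were not rerun at 2-fold or without the filter. Of 51 called higher 45 were called under each of the scaling, thinning, cell weight, mitochondrial, doublet score, Krt14 threshold and cycling cell alternatives, and of 57 lower 39. These counts include threshold genes, whose direction the choice of cells partly set. Each such call rested on the 1.5-fold ratio alone, with no CPM floor. The lower calls lost include the threshold genes Ube2c, Ccnb1, Plk1, Cenpf, Hist1h1b, Hist1h2ap and Rrm2. Sizes were less stable than calls. Of 156 named gene ratios, 111 left their counting interval with thinned cells and 124 with equally weighted cells. List medians shifted past a set margin for 17 of 33 lists with thinned cells and 19 with equally weighted cells. Calls lost under an alternative include Tgfbi (1.5, thinned 1.34), Sema5a (1.61, thinned 1.26) and Kera. Depth limits genes at low levels: Psca, at 5.08 CPM, rests on 109 UMIs in Krt14-high cells.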
